A study of Homo sapiens with 192 samples.

Results

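HT29, a human cell line established from a colorectal adenocarcinoma, was compared between growth in 3D and growth as a flat layer in 2D. The members were the 6 libraries whose labels name HT29, 3 grown in 3D (HT29-3D-1, HT29-3D-3 and HT29-3D-4) and 3 grown in 2D (HT29-2D-1, HT29-2D-2 and HT29-2D-3), out of 24 libraries in the series. The other 18 libraries come from the colorectal lines LS513, HCT116 and LS174T in the same 2 growth conditions and were used for the shared estimate of spread and for 1 comparison between lines. The purpose of the contrast was to learn how the growth condition alters the expression profile of tumor cells. No cell carried a labelled genetic change or drug treatment, and the growth condition is the only labelled difference between the HT29 groups. The labels give no culture time, and the methods describe spheroids in low attachment plates for a growth assay without stating how the sequenced 3D cultures were made. They do not state either that the 3 libraries of a group came from separate cultures, so p-values measure the spread between these libraries, which may be technical.

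Cells in a 2D layer spread on a rigid surface, build tension through actin fibers and integrins, and are bathed evenly in medium. In multicellular aggregates cells adhere mainly to each other, the surface they can spread on is small, and oxygen and nutrients reach the inner cells less readily. HT29 is known as a line with an immature phenotype in ordinary culture that can take on features of absorptive and of mucus-secreting colonic cells when its conditions are altered. The transcriptional coactivator YAP responds to spreading and tension, HIF factors to low oxygen, and interferon-stimulated genes to interferon signaling, and lists of their known targets are described below.

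Library totals of HT29 lay between 18723942 and 34277421 counts, with a median of 30345339 in 2D and 29621634 in 3D. Levels are given as counts for a library total of 1000000 (CPM) scaled by the trimmed mean of M values, and 3 counts, taken here as the limit of detection, stood for 0.0875 to 0.160 CPM before that scaling. The 15 colonic epithelial markers examined were above 3 counts in every HT29 library, among them *EPCAM*, *KRT8* and *CDX2*. Of 11 fibroblast markers, 10 stayed at or below 3 counts in every library and *COL1A2*, *COL3A1*, *LUM* and *POSTN* were at 0, and the summed level of the list was 1.03 to 1.15 CPM in 2D and 0.726 to 1.18 CPM in 3D. Of 8 endothelial markers, 5 stayed at or below 3 counts, and their sum was 1.03 to 1.81 CPM in 2D and 2.49 to 3.23 CPM in 3D, with *KDR*, *EMCN* and *CLDN5* at 0. Of 11 leukocyte markers, 4 stayed at or below 3 counts, with *CD3E* and *MS4A1* at 0, and their sum was 1330 to 1440 CPM in 2D and 2440 to 2690 CPM in 3D, most of it *LYZ*, a lysozyme that secretory intestinal cells also make. Of the 4 leukocyte markers with enough counts for the test 3 were higher in 3D: *LYZ*, the monocyte receptor *CD14* (6.0, 7.29 and 5.04 CPM in 2D and 15.1, 10.1 and 12.8 CPM in 3D, 1.04, adjusted p = 0.00721) and the lysosomal protein *CD68* (5.62, 7.54 and 4.77 CPM in 2D and 15.3, 11.2 and 14 CPM in 3D, 1.17, adjusted p = 8.4e-05), 81.7% of whose exon length is shared with another gene. The part of such markers in the results was not tested.

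The first principal component of the 6 libraries, with 59.4% of the variance, parted 3D from 2D. The second, with 12.6%, set HT29-2D-3 (-50.6) apart from HT29-2D-1 (20.2) and HT29-2D-2 (32.8). HT29-2D-3 was also the shallowest library and held far more RNA that lacks a poly(A) tail. *RMRP*, *RPPH1*, *RN7SK*, *RN7SL1* and *RN7SL2*, the RNA parts of small nuclear and cytoplasmic particles, summed to 1108 CPM in HT29-2D-3, to 5.25 and 7.85 CPM in HT29-2D-1 and HT29-2D-2, and to 6.09, 11.6 and 9.25 CPM in the 3D libraries. The 24 replication-dependent histone genes, whose messengers end in a stem-loop in place of a tail, summed to 25, 25.4 and 292 CPM in 2D and to 65.5, 55.7 and 52.7 CPM in 3D. With all libraries 15 histone genes were lower in 3D and 1 was higher, with a median log2 fold change of -2.62. Without HT29-2D-3, 0 were lower and 9 were higher (median 0.606). No direction is therefore given for histone genes or for *RMRP*, which stood at 1.06, 1.93 and 347.6 CPM in 2D and 0.302, 0.519 and 0.798 CPM in 3D and which is listed under 2 identifiers with the same counts. Its log2 fold change went from -7.77 to -1.46 without that library. The small nucleolar and Cajal body RNAs summed to 159, 154 and 330.0 CPM in 2D and to 80.2, 131 and 80.8 CPM in 3D. Of 132 tested, 75 were lower with all libraries (median -1.53), beside 3793 of all 19387 genes. Without HT29-2D-3, 47 were lower (median -1.18), beside 2835 of all 19833 genes in that fit. In either fit 0 were higher.

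**Figure D1:**
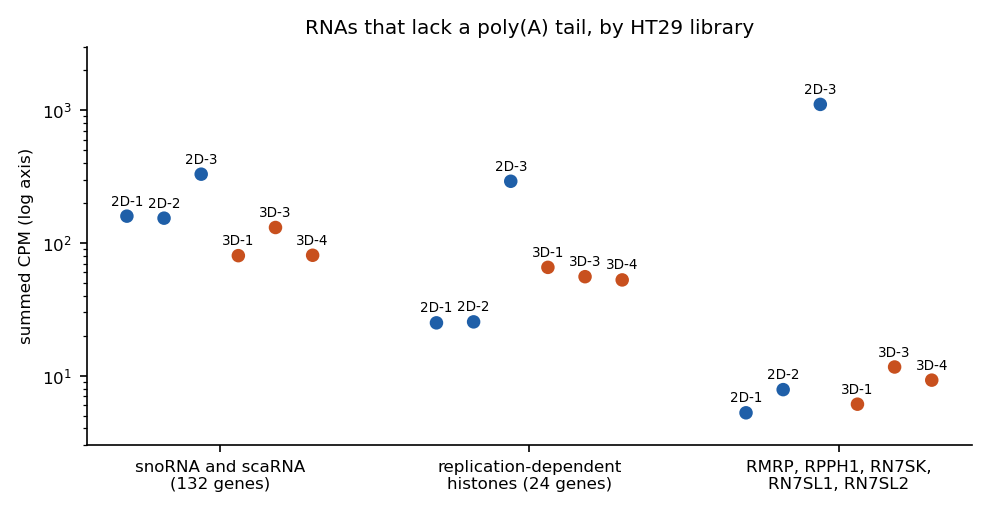
Summed level of 3 classes of RNA that lack a poly(A) tail in each HT29 library, in CPM on a log axis (blue, 2D; orange, 3D; each point is 1 library). HT29-2D-3 holds 1108 CPM of the 5 particle RNAs, against 5.25 to 11.6 CPM in the other libraries.

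A trend with transcript length and base composition ran along the growth condition. Among protein-coding genes, the slope of log2 CPM was 0.0591 to 0.0919 for each doubling of transcript length in the 2D libraries and -0.169 to -0.102 in the 3D libraries. For each 10 points of GC content the slopes were -0.129 to -0.0806 in 2D and 0.0785 to 0.129 in 3D. No 2D library overlapped a 3D library on either slope. Of the detected protein-coding genes in the shortest of 4 equal groups (transcripts of up to 2301 bases), 40.6% were higher in 3D and 9.35% lower, and in the longest group (5286 bases and more) 12.7% were higher and 41.9% lower. With the offset described next these shares were 29% and 23.3%, and 24.9% and 25.0%. The same order stood in the mean of the other lines, where the medians of these groups went from 0.216 to -0.171, against 0.278 to -0.283 in HT29. Chromosome 19, whose genes are mostly GC-rich, had 33.9% of its detected protein-coding genes higher and 11.8% lower. A fit with an offset for length and GC content, chosen after these slopes were seen, gave 25.9% and 24.3% there. That fit kept 6039 of the 7887 genes called without it (76.6%) and turned the direction of 0, and its value for this contrast is given below beside named genes, list medians and list counts of 3 or more that it moved by over 1.5 times. Whether the trend arises in the cells or in the libraries cannot be told apart.

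**Figure D2:**
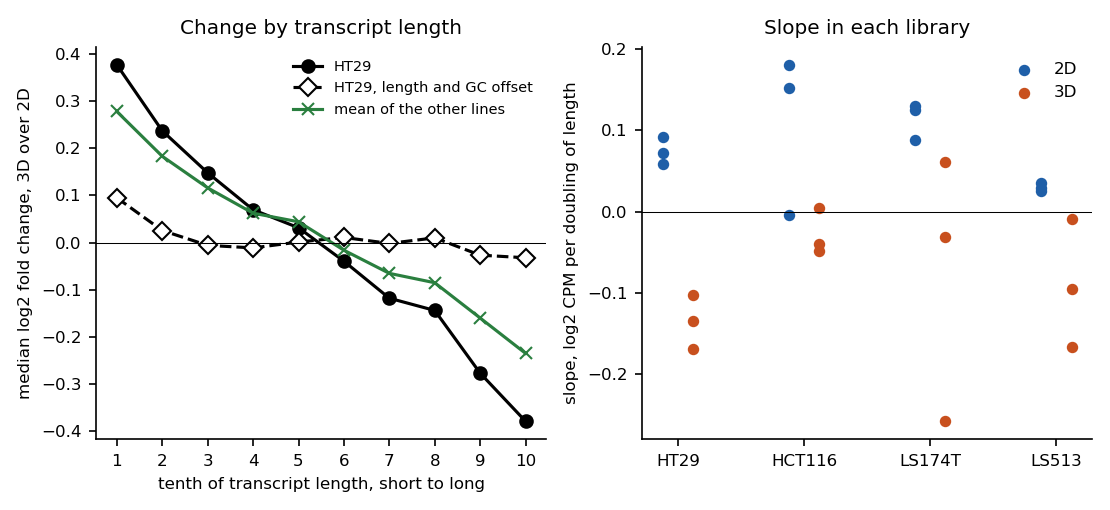
Left, median log2 fold change of detected protein-coding genes in 10 equal groups of transcript length, for HT29 (median 0.377 in the shortest group and -0.379 in the longest), for HT29 with the length and GC offset, and for the mean of the other lines. Right, slope of log2 CPM on log2 transcript length in each library (each point is 1 library), which in HT29 is above 0 in all 2D libraries and below 0 in all 3D libraries.

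Of 19387 genes tested, 4094 were higher in HT29 grown in 3D (21.1%) and 3793 were lower (19.6%) at an adjusted p under 0.05, of which 1664 (8.58%) and 739 (3.81%) differed at least 2-fold. In 7567 genes (39.0%) the call came with no overlap between the 3D and 2D libraries, and 10263 genes (52.9%) had no overlap in all. The median size of the change among called genes was 0.691 on the log2 scale, and 5010 of them were called in each of the 6 fits that left out 1 library. At an unadjusted p under 0.05 there were 9395 genes. Single values in parentheses after a gene below are its log2 fold change of 3D over 2D, and a gene passed the test unless stated otherwise. Where the counts of a condition lay near the limit of detection, the size of this change is uncertain. In 2D this holds among others for *H19* (5, 6 and 2 counts), *NEURL1* (1, 10 and 4) and *NEUROG3* (3, 6 and 0). It also holds for *SPINK4* (2, 11 and 1), *IFITM1* (4, 1 and 3) and *RSAD2* (1, 1 and 6). In these bulk libraries fewer cells of a type and less RNA per cell cannot be told apart. In the plot of fold change against level, the largest increases lay among genes of low and middle level, and *FLNA* was the abundant gene with the largest fall in CPM.

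**Figure D3:**
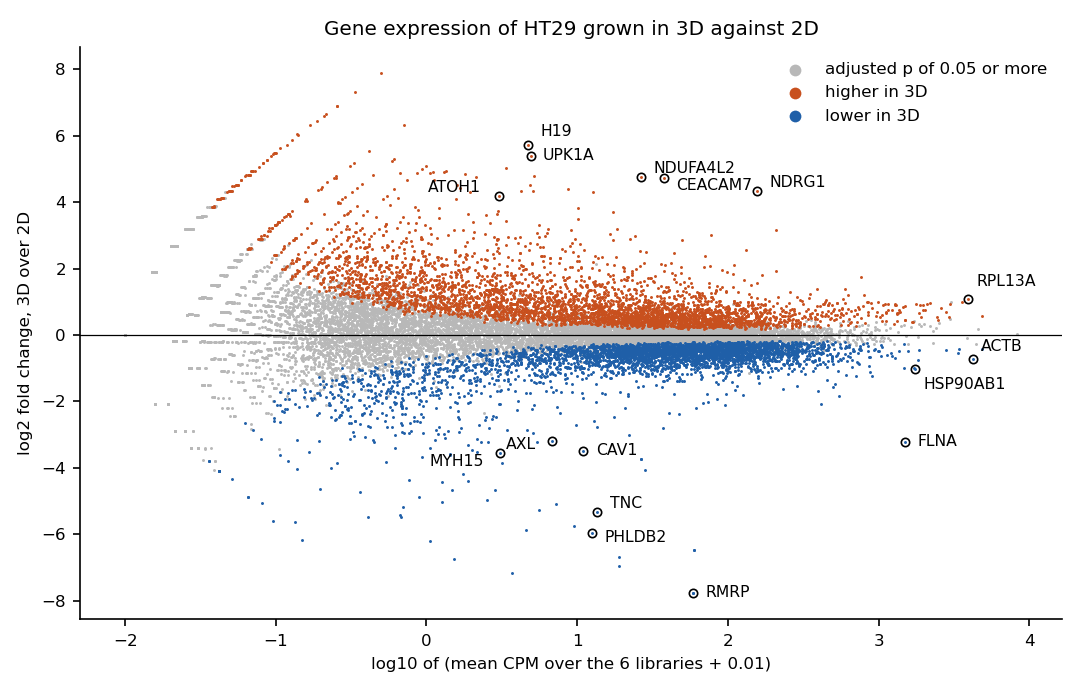
Each point is 1 of 19387 genes, with its mean level over the 6 HT29 libraries (log10 CPM) and its log2 fold change of 3D over 2D. Orange and blue points passed an adjusted p of 0.05, and 16 genes described in the text are circled, from *RMRP* at -7.77, which rests on 1 library, to *H19* at 5.74.

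The 10 largest decreases by the rule for named genes held *RMRP* under its 2 identifiers, the small nucleolar RNAs *SNORA73A* and *SNORA73B*, *TFF1*, described below, and 5 genes of adhesion, matrix and the cytoskeleton. *SNORA73A* stood at 1.41, 1.2 and 39.2 CPM in 2D and 0.211, 0.38 and 0.617 CPM in 3D (log2 fold change -5.1, or -1.69 without HT29-2D-3), and *SNORA73B* at 0.754, 0.826 and 54.1 CPM in 2D and 0.121, 0.588 and 0.327 CPM in 3D (-5.74, or -1.19 and not called without that library). HT29-2D-3 carried the 2D mean of both, neither was called when only the 6 HT29 libraries were fitted, and the whole exon length of *SNORA73A* is shared with another gene, so its counts are uncertain. *FLNA*, which encodes filamin A, a crosslinker of actin filaments (ENSG00000196924, GRCh38 chrX:154348524-154374638, minus strand), stood at 2452, 3215 and 2467 CPM in 2D and 279.7, 255 and 336 CPM in 3D. The groups were far apart, and the change of -3.22 (SE 0.17, adjusted p = 2.0e-11) was also the largest fall in CPM of any called gene. *PHLDB2*, whose product anchors microtubules at the cell cortex near focal adhesions (ENSG00000144824, GRCh38 chr3:111732497-111976517, plus strand), went from 27.4, 23.8 and 23.2 CPM in 2D to 0.151, 0.346 and 0.726 CPM in 3D (log2 fold change -5.97, SE 0.32, adjusted p = 2.0e-11). *TNC*, the matrix glycoprotein tenascin C (ENSG00000041982, GRCh38 chr9:115019578-115118257, minus strand), went from 16.1, 43 and 20.7 CPM to 0.754, 0.553 and 0.653 CPM (log2 fold change -5.33, SE 0.36, adjusted p = 3.7e-10). *CAV1*, the main coat protein of caveolae (ENSG00000105974, GRCh38 chr7:116524785-116561184, plus strand), stood at 21.4, 28 and 11 CPM in 2D and 2.23, 1.45 and 1.71 CPM in 3D (log2 fold change -3.49, SE 0.26, adjusted p = 1.9e-09). *MYH15*, a myosin heavy chain, stood at 4.01, 8.95 and 4.05 CPM in 2D and 0.332, 0.45 and 0.689 CPM in 3D (log2 fold change -3.56, SE 0.35, adjusted p = 8.9e-08). The rule for named genes required no overlap between the 3D and 2D libraries, which held for 52.9% of all genes tested. Each of these 5 genes stayed called with the length and GC offset and without each library in turn.

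Of 25 tested genes of actin and of the serum response factor, 15 were lower and 3 higher (19.6% and 21.1% of all genes tested), with a median log2 fold change of -0.414 where the median of all genes was 0.000175. *MYL9*, a myosin light chain, went from 1.37, 1.07 and 2.58 CPM in 2D to 0.272, 0.138 and 0.181 CPM in 3D (-2.96), and *ACTB*, the most abundant member, from 4854, 5790 and 5036 to 3483, 2877 and 3176 CPM (-0.72, adjusted p = 1.4e-05). Among the 3 that rose were *TAGLN2* (0.70, or 0.37 with the offset) and *TPM2* (0.61, or 0.31 with the offset), both actin-binding proteins, so the list did not move as a whole. The summed level of the list was 19140 to 22530 CPM in 2D and 12000 to 14310 CPM in 3D.

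Of 23 tested targets of YAP, 16 were lower and 1 higher (median -0.797, or -0.748 with 2 members at 0 set to the detection limit). *AXL*, a receptor tyrosine kinase, stood at 10.6, 16.4 and 9.48 CPM in 2D and 1.45, 0.934 and 1.63 CPM in 3D (log2 fold change -3.19, SE 0.23, adjusted p = 1.3e-09), and *MYOF*, a membrane repair protein, at 147, 165 and 155 CPM in 2D and 32.9, 35.8 and 40.6 CPM in 3D (-2.1). *TGFB2*, a secreted growth factor whose exons share 26.6% of their length with another gene, went from 1.99, 5.47 and 3.45 to 0.332, 0.173 and 0.472 CPM (-3.47). *YAP1* itself fell from 146, 155 and 175 to 98.2, 84.5 and 119.9 CPM (-0.65, or -0.41 with the offset, adjusted p = 0.00228). The list summed to 1050 to 1104 CPM in 2D and 532.2 to 586.8 CPM in 3D, with no overlap between the groups. In the mean of the other lines the median of these genes was -0.0656.

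Of 34 integrin and matrix genes, 15 were lower and 1 higher (median -0.304, or -0.252 with 5 members at the limit). *COL16A1*, a fibril-associated collagen, went from 68.7, 75.9 and 60.5 CPM in 2D to 25.8, 27.5 and 24.7 CPM in 3D (-1.4), and *FN1*, fibronectin, from 1.82, 0.585 and 1.21 to 0.0603, 0.138 and 0.29 CPM (-2.91, adjusted p = 0.00145). *TGFBI*, a matrix protein induced by TGF-beta that was followed in a short list of mesenchymal genes, stood at 28, 41.8 and 32 CPM in 2D and 9.2, 5.81 and 7.18 CPM in 3D (-2.19). Only *COL18A1*, a basement membrane collagen, was higher (0.62, adjusted p = 0.00523). Of 13 tested mesenchymal genes 3 were lower and 2 higher, beside 19.6% and 21.1% of all genes.

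Of 33 junction and keratin genes 11 were higher and 6 lower, beside 21.1% and 19.6% of all genes (median 0.00375, or -0.0277 with the offset). *KRT8*, the most abundant gene of the list, stood at 7777, 9227 and 7607 CPM in 2D and 7938, 9043 and 8415 CPM in 3D and did not pass the test (0.05, adjusted p = 0.907, and -0.16 with the offset). *KRT18*, its partner in epithelial filaments, was lower (5135, 6182 and 5425 CPM in 2D and 4810, 3729 and 4035 CPM in 3D, -0.41, or -0.68 with the offset, adjusted p = 0.0256), a call that was lost without any of HT29-2D-1, HT29-2D-2, HT29-2D-3, HT29-3D-3 and HT29-3D-4 (values over the 6 such fits from -0.49 to -0.29). *KRT80* (-1.0) and *CLDN1* (-1.18) fell, while *KRT23* (2.33) and *CLDN3* (1.02, or 0.54 with the offset) rose.

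**Figure D4:**
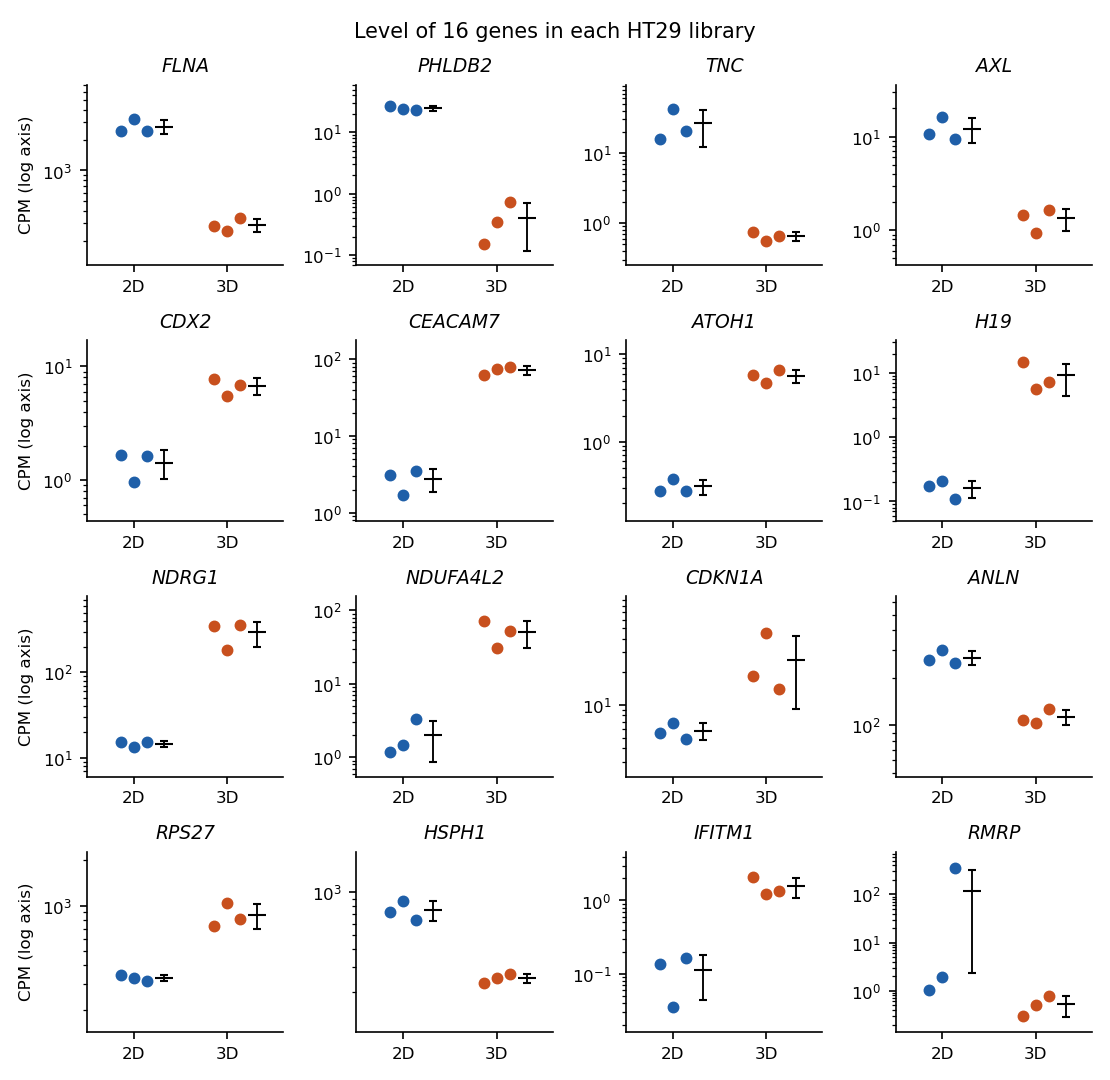
Level of 16 genes in each HT29 library in CPM on log axes (blue, 2D; orange, 3D; each point is 1 library). The bar beside each group is the mean ± SD (n = 3), cut short above 0 where the SD exceeded the mean (*RMRP* in 2D). The groups do not overlap in any panel, but in that of *RMRP* 1 library of 2D carries the mean.

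Genes of intestinal differentiation moved the other way. Of 24 tested genes of the secretory lineage, which yields goblet, Paneth and enteroendocrine cells, 16 were higher and 1 lower (median 1.46, or 1.37 with the 2 members at 0 in a whole condition set to the detection limit). *ATOH1*, the transcription factor that commits intestinal cells to this lineage (ENSG00000172238, GRCh38 chr4:93828753-93830964, plus strand), stood at 0.274, 0.379 and 0.274 CPM in 2D and 5.88, 4.7 and 6.6 CPM in 3D (log2 fold change 4.18, SE 0.28, adjusted p = 3.7e-10). *NEUROG3*, which directs enteroendocrine fate, went from 0.103, 0.206 and 0 to 5.04, 1.83 and 3.52 CPM (4.86, adjusted p = 6.9e-06), from 3, 6 and 0 counts in 2D. *AGR3*, a disulfide isomerase of secretory cells (ENSG00000173467, GRCh38 chr7:16859405-16881987, minus strand), stood at 0.309, 0.688 and 0.11 CPM in 2D and 9.59, 7.99 and 6.86 CPM in 3D (log2 fold change 4.34, SE 0.34, adjusted p = 7.3e-09). *SPINK4*, a peptide of goblet cells, went from 0.0686, 0.379 and 0.0548 to 3.5, 3.04 and 4.61 CPM (4.32), and *LYZ*, the most abundant member, from 1383, 1312 and 1426 to 2405, 2586 and 2660 CPM (0.89). *TFF1*, a trefoil peptide secreted with mucus (ENSG00000160182, GRCh38 chr21:42362282-42366594, minus strand), was the member that fell, from 10.4, 12.2 and 6.46 to 0.995, 0.934 and 1.2 CPM (log2 fold change -3.23, SE 0.34, adjusted p = 7.3e-07). Summed, the list stood at 1551 to 1653 CPM in 2D and 3047 to 3305 CPM in 3D, most of it *LYZ*.

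Of 25 tested genes of the absorptive lineage, 15 were higher and 1 lower (median 0.836, which was 1.43 in a fit of the 6 HT29 libraries alone and 1.26 without HT29-2D-2). *CEACAM7*, a surface glycoprotein of mature colonocytes (ENSG00000007306, GRCh38 chr19:41673307-41706976, minus strand), stood at 3.09, 1.72 and 3.45 CPM in 2D and 61.3, 75.6 and 80.2 CPM in 3D (log2 fold change 4.74, SE 0.29, adjusted p = 1.1e-09). *CDX1* and *CDX2*, the homeobox factors that specify intestinal epithelium, rose by 2.81 (to 3.5, 3.29 and 2.94 CPM in 3D) and by 2.25 on the log2 scale, the latter from 1.68, 0.964 and 1.64 to 7.72, 5.5 and 6.93 CPM. *GUCA2A*, the guanylin precursor, went from 0.103, 0.31 and 0.219 to 1.21, 1.28 and 1.09 CPM (2.49), and *KRT20*, a keratin of differentiated cells and the most abundant member, stood at 379, 512 and 327 CPM in 2D and 640.4, 693 and 737 CPM in 3D (0.76, adjusted p = 2.8e-04). *GPA33*, a junctional antigen of the gut epithelium followed as a colonic marker, rose from 0.206, 0.379 and 0.493 to 2.99, 3.35 and 2.94 CPM (3.16).

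Of 29 genes of Wnt signaling and stem cells 7 were higher and 8 lower (median 0.00), shares near the 21.1% and 19.6% of all genes. *PROM1*, a surface marker of progenitors, stood at 7.03, 3.82 and 5.75 CPM in 2D and 25.2, 15.3 and 14.1 CPM in 3D (1.73). *SP5* (1.69), a target of Wnt signaling, and *ASCL2* (1.57), a factor of crypt stem cells, rose with it. *DKK1*, a secreted Wnt inhibitor, went from 12.7, 32 and 21.3 to 3.02, 3.67 and 4.39 CPM (-2.58), *KITLG* from 68.7, 85.6 and 85.5 to 14.8, 13.4 and 18.1 CPM (-2.38) and *CCND1* from 118, 126 and 141 to 56.9, 51 and 65.7 CPM (-1.15). *CD44*, the most abundant member, rose from 240.2, 224 and 258 to 343, 305 and 326 CPM (0.43, or 0.66 with the offset). Among Notch and IGF genes, 8 of 25 were higher and 7 lower, beside 21.1% and 19.6% of all genes. *DLL4*, a Notch ligand, went from 0.172, 0.688 and 0.438 to 7.09, 4.12 and 5.19 CPM (log2 fold change 3.65, SE 0.30, adjusted p = 7.3e-09), whereas *JAG1*, another ligand, stood at 39.5, 40.1 and 33.1 CPM in 2D and 9.68, 14.7 and 14 CPM in 3D (log2 fold change -1.56, SE 0.16, adjusted p = 2.0e-07) and the receptor *NOTCH2* fell (-0.89).

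Several of the largest increases belonged to none of these lineages. *UPK1A*, a membrane protein known from the bladder lining (ENSG00000105668, GRCh38 chr19:35666516-35678483, plus strand), stood at 0.309, 0.0688 and 0.329 CPM in 2D and 10, 8.99 and 9.65 CPM in 3D (log2 fold change 5.39, SE 0.38, adjusted p = 7.9e-10). *NEURL1*, a ubiquitin ligase that acts on Notch ligands (ENSG00000107954, GRCh38 chr10:103493979-103592552, plus strand), stood at 0.0343, 0.344 and 0.219 CPM in 2D and 7.99, 5.12 and 6.38 CPM in 3D (log2 fold change 5.02, SE 0.38, adjusted p = 1.9e-09). *NXPH4*, a secreted neurexophilin (ENSG00000182379, GRCh38 chr12:57216795-57226449, plus strand), went from 0.309, 0.31 and 0.493 to 14.6, 5.64 and 9.54 CPM (log2 fold change 4.79, SE 0.39, adjusted p = 5.3e-09), and *ALDH3B2*, an aldehyde dehydrogenase (ENSG00000132746, GRCh38 chr11:67662162-67681200, minus strand), from 0.96, 0.379 and 1.1 to 13.6, 19.7 and 16.5 CPM (log2 fold change 4.39, SE 0.38, adjusted p = 8.0e-08). *H19*, an imprinted noncoding RNA (ENSG00000130600, GRCh38 chr11:1995176-2001470, minus strand), went from 0.172, 0.206 and 0.11 to 14.7, 5.6 and 7.29 CPM (log2 fold change 5.74, SE 0.50, adjusted p = 2.1e-08), with HT29-3D-1 well above the other 3D libraries. Its neighbour *IGF2*, 73.7% of whose exon length is shared with another gene and whose counts are therefore uncertain, stood at 26.7, 17.6 and 20.8 CPM in 2D and 69.8, 37 and 41.6 CPM in 3D (1.19).

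Most genes of mitosis and many of DNA replication fell. Of 54 tested G2/M genes, 48 were lower and 0 higher (median -0.671), and the list summed to 10310 to 11080 CPM in 2D and 6770 to 7004 CPM in 3D. *ANLN*, which scaffolds the cleavage furrow, stood at 257, 299 and 247 CPM in 2D and 107, 104 and 127 CPM in 3D (log2 fold change -1.25, SE 0.18, adjusted p = 8.7e-06), and *KIF20B*, a mitotic kinesin, went from 105, 112 and 119 to 48.6, 45 and 51.6 CPM (-1.21, or -0.73 with the offset). *TUBB4B*, a tubulin and the most abundant member, stood at 1076, 1125 and 1035 CPM in 2D and 997, 1119 and 977 CPM in 3D and did not pass the test (-0.07), though with the length and GC offset it did (-0.40). S phase genes were lower in 22 of 43 with 1 higher (median -0.279), and DNA replication genes in 19 of 42 with 1 higher (median -0.262), a count of lower genes that was 29 with the offset. *CLSPN*, a checkpoint mediator, went from 42.7, 44.4 and 50.7 to 21.1, 22.6 and 29.8 CPM (-0.91), *MCM10* from 51.3, 52.7 and 55.8 to 28.5, 29.2 and 35.4 CPM (-0.78) and *POLA1*, a subunit of DNA polymerase alpha, from 46.3, 42.6 and 46.5 to 30.3, 24.3 and 27.8 CPM (-0.72, or -0.46 with the offset). *MCM7*, of the replicative helicase, did not pass the test (-0.07), and did with the offset (-0.28).

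Of 29 cyclins, kinases and their inhibitors, 13 were lower (8 without HT29-2D-3) and 5 higher, beside 19.6% and 21.1% of all genes. The median of the list was -0.0862, or -0.207 with the offset. *CDKN1A*, which encodes the inhibitor p21, stood at 5.52, 6.81 and 4.82 CPM in 2D and 18.3, 44.9 and 14 CPM in 3D (log2 fold change 2.15, SE 0.29, adjusted p = 6.4e-06), with HT29-3D-3 highest. *E2F3* fell from 48.8, 47.8 and 51.1 to 22.6, 24.1 and 23.1 CPM (-1.08) and *CDK6*, the kinase partner of cyclin D1, from 126, 132 and 142 to 71, 68.2 and 68.5 CPM (-0.94, or -0.46 with the offset). Of 25 targets of p53, 11 were higher and 4 lower (0 lower without HT29-2D-3 and 1 with the offset), beside 21.1% and 19.6% of all genes. *TP53INP1* stood at 0.343, 0.241 and 0.493 CPM in 2D and 4.13, 3.49 and 3.48 CPM in 3D (log2 fold change 3.42, SE 0.40, adjusted p = 9.0e-07). HT29 is known to carry a mutant p53.

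Ribosomal protein genes and the genes that assemble ribosomes moved apart. Of 79 ribosomal protein genes, 72 were higher and 0 lower (median 0.695), and their summed level was 58240 to 63030 CPM in 2D and 97100 to 104300 CPM in 3D. *RPS27* stood at 346, 327 and 314 CPM in 2D and 729, 1038 and 812 CPM in 3D (log2 fold change 1.39, SE 0.21, adjusted p = 2.8e-05), *RPL13A* at 2661, 2426 and 2406 CPM in 2D and 5417, 5493 and 5140 CPM in 3D (1.1) and *RPL10* at 1515, 1478 and 1412 CPM in 2D and 2867, 3050 and 2765 CPM in 3D (0.98). *RPL13A* had the largest rise in CPM of any called gene, ahead of *TPT1* (0.99), *EEF1A1* (0.57), an elongation factor, and *S100A6* (0.93, or 0.52 with the offset). Ribosomal protein genes have short transcripts, with a median of 1857 bases, and many have processed copies that can share reads with them, while 17.3% of the exon length of *RPL13A* is shared with another gene. With the offset, 64 were higher and 0 lower (median 0.533). Of 40 genes of ribosome assembly, 26 were lower and 1 higher (median -0.414). *HEATR1* (157, 173 and 160 CPM in 2D and 76.6, 62.2 and 74.3 CPM in 3D, -1.2) and *UTP20* (-1.2), which process the precursor of the small subunit, and *POLR1A* (-0.99), the largest subunit of RNA polymerase I, fell most, and *NCL*, nucleolin, fell from 1135, 1235 and 1147 to 823, 853 and 869 CPM (-0.47).

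Genes induced by low oxygen were higher, but not throughout. Of 33 tested, 20 were higher and 0 lower (median 0.739). *NDRG1*, a stress-responsive growth suppressor, stood at 15.4, 13.2 and 15.3 CPM in 2D and 345, 183 and 357 CPM in 3D (log2 fold change 4.33, SE 0.25, adjusted p = 3.7e-11). *NDUFA4L2*, which lowers the activity of complex I (ENSG00000185633, GRCh38 chr12:57234903-57240715, minus strand), stood at 1.2, 1.48 and 3.29 CPM in 2D and 71.3, 30.5 and 51.7 CPM in 3D (log2 fold change 4.77, SE 0.44, adjusted p = 7.8e-08), and *MIR210HG*, the host transcript of miR-210 (ENSG00000247095, GRCh38 chr11:565660-568457, minus strand), at 0.583, 0.344 and 0.219 CPM in 2D and 9.92, 9.2 and 8.96 CPM in 3D (log2 fold change 4.53, SE 0.25, adjusted p = 2.4e-11). *ANKRD37* went from 0.754, 0.895 and 0.712 to 5.82, 8.37 and 4.24 CPM (2.94), and *ANGPTL4*, a secreted lipase inhibitor with at most 1 count in any 2D library, reached 2.02, 0.484 and 0.98 CPM in 3D. *CA9*, a carbonic anhydrase at the cell surface, stood at 39.8, 44.3 and 40.6 CPM in 2D and 189, 117 and 159 CPM in 3D (log2 fold change 1.9, SE 0.32, adjusted p = 8.6e-05). *VEGFA*, the angiogenic factor, stood at 79.4, 75 and 70.5 CPM in 2D and 99.7, 115 and 77.9 CPM in 3D, which did not pass the test (0.38, adjusted p = 0.0618) but did with the offset (0.57) and without HT29-3D-4 (0.55). *SLC2A1*, the glucose transporter GLUT1 and the most abundant member, stood at 846, 925 and 774 CPM in 2D and 999, 745 and 860.5 CPM in 3D and did not pass either (0.03, adjusted p = 0.879, and -0.07 with the offset).

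The core of the hypoxia response element, the letters ACGTG on either strand, was present in the promoters (250 bases before to 50 after the start, RefSeq, GRCh38.p14) of 13 of the 26 hypoxia genes that had an entry (50%) and of 21.6% of all 27305 promoters. It was present in 7 of the 16 hypoxia genes that rose and in 6 of the 10 that did not. Of the promoters of tested protein-coding genes 25.8% held it. Among all protein-coding genes higher at least 2-fold, 19.1% of 874 promoters held it, and among those lower at least 2-fold 18.2% of 291. The 80 bases that hold it in 2 of the genes above are shown with the matches in capitals, for *ANKRD37* from chr4:185396663-185396742 on the plus strand and for *CA9* from chr9:35673848-35673927 on the plus strand. The match in *CA9* begins 18 bases before the start.
ANKRD37: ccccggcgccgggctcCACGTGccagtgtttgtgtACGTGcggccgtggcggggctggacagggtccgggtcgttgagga
CA9: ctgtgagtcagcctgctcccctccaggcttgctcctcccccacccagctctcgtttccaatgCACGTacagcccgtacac

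Glycolytic genes gave 8 higher and 3 lower of 20 (median 0.229, or 0.0898 with 1 member at the detection limit), but with the offset 5 higher and 7 lower (median 0.00151). *ALDOC*, an aldolase, stood at 12.5, 10.5 and 13.3 CPM in 2D and 124, 54.5 and 82.3 CPM in 3D (log2 fold change 2.85, SE 0.27, adjusted p = 6.2e-08), *PGK1* at 880.3, 931 and 867 CPM in 2D and 1723, 1626 and 1651 CPM in 3D (0.90) and *LDHA* at 1052, 1247 and 1050 CPM in 2D and 1521, 1308 and 1422 CPM in 3D (0.34). *ENO1*, enolase, fell from 3155, 3529 and 2969 to 2518, 2281 and 2287 CPM (-0.45, adjusted p = 0.00257) and *SLC16A1*, a lactate transporter, from 168, 174 and 180.3 to 121, 107 and 139.7 CPM (-0.51, or -0.33 with the offset). *GAPDH*, the most abundant member, stood at 4095, 4575 and 4096 CPM in 2D and 5418, 4330 and 4828 CPM in 3D and did not pass the test (0.19, adjusted p = 0.183, and -0.15 with the offset), except without HT29-3D-3 (0.32). Nuclear genes of the respiratory chain were higher in 27 of 50 with 0 lower (median 0.34), with *UQCRQ* at 124, 126 and 118 CPM in 2D and 212, 286 and 252 CPM in 3D (1.02) and *NDUFA1* at 77.3, 77.6 and 77.7 CPM in 2D and 135, 168 and 154 CPM in 3D (0.98). Of 13 genes encoded in mitochondrial DNA 0 were called, and their sum was 10690 to 19830 CPM in 2D and 13870 to 22950 CPM in 3D, so the groups overlapped.

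In lipid metabolism, 13 of 25 genes of cholesterol synthesis and uptake were higher and 0 lower (median 0.337). *TM7SF2*, a sterol reductase, went from 17, 15.2 and 16.1 CPM in 2D to 43.7, 33.9 and 36.1 CPM in 3D (1.23) and *MVD* from 53.9, 53.5 and 52.8 to 88.4, 90.1 and 98.5 CPM (0.79, or 0.44 with the offset). Among genes of fatty acid synthesis *ACSS2* (1.39), *SREBF1*, which encodes the regulator SREBP1 (189, 154 and 194 CPM in 2D and 427, 359 and 402 CPM in 3D, 1.15), and *SCD*, stearoyl-CoA desaturase (1933, 1745 and 2012 CPM in 2D and 3474, 2729 and 3722 CPM in 3D, 0.80), rose, while *FASN*, fatty acid synthase, stood at 959, 889 and 1060 CPM in 2D and 967, 858 and 965 CPM in 3D and did not pass (-0.06). Of 22 genes of fatty acid oxidation, 11 were higher and 1 lower (median 0.343). *ACADS*, a mitochondrial enzyme that oxidizes short chains, stood at 3.57, 2.96 and 4.33 CPM in 2D and 11.1, 9.34 and 9.21 CPM in 3D (log2 fold change 1.47, SE 0.21, adjusted p = 8.3e-06).

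Most chaperone genes fell. Of 17 tested genes of the heat shock response, 13 were lower and 0 higher (median -0.489), and the list summed to 12250 to 14510 CPM in 2D and 7580 to 8743 CPM in 3D. *HSPH1* stood at 726, 873 and 644 CPM in 2D and 231, 254 and 267 CPM in 3D (log2 fold change -1.58, SE 0.15, adjusted p = 5.2e-08) and *HSP90AB1* at 2333, 2485 and 2158 CPM in 2D and 1266, 1170 and 1030 CPM in 3D (log2 fold change -1.01, SE 0.09, adjusted p = 3.2e-08). *HSPA8*, the constitutive HSP70 and the most abundant member, went from 3957, 4493 and 3520 to 2443, 3042 and 2737 CPM (-0.54, adjusted p = 0.0029). Of 22 genes of the unfolded protein response, 10 were lower and 1 higher (3 with the offset), with *HSPA5*, the chaperone BiP, going from 893, 1013 and 842 to 516, 519 and 537 CPM (-0.81).

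Targets of ATF4, the factor of amino acid shortage, were lower in 13 of 28 and higher in 5 (median -0.235, or -0.126 without HT29-2D-3). The amino acid transporters *SLC7A5* (645, 609.5 and 708 CPM in 2D and 242, 239.8 and 288 CPM in 3D, log2 fold change -1.35, SE 0.11, adjusted p = 3.6e-09) and *SLC7A11* (-1.13, or -0.60 with the offset) and the hormone *FGF19* (-1.09) fell most. *NUPR1* with 0.0686, 0 and 0.219 CPM in 2D and 2.05, 2.39 and 1.96 CPM in 3D, *GDF15* (13.9, 10.8 and 16 CPM in 2D and 84, 78.7 and 60.9 CPM in 3D, log2 fold change 2.47, SE 0.24, adjusted p = 7.6e-08) and *ATF3* (3.84, 3.27 and 2.52 CPM in 2D and 13.9, 26.9 and 9.94 CPM in 3D, 2.38), which other stress pathways also induce, rose. Targets of NRF2, the factor of oxidative stress, were lower in 11 of 25 and higher in 1 (median -0.218, or -0.389 with the offset and -0.397 without HT29-3D-3). *GPX2*, an epithelial glutathione peroxidase, rose from 1064, 1120 and 938 CPM in 2D to 1509, 1778 and 1591 CPM in 3D (0.64, or 0.36 with the offset). Of 11 metallothionein and zinc genes 5 were higher and 1 lower (median 1.28, or 0.173 with 2 members at the detection limit and 0.606 without HT29-3D-4), with *MT1E* at 14.3, 8.81 and 13.9 CPM in 2D and 30.6, 36.6 and 28.7 CPM in 3D (1.38) and *MT2A* at 5.45, 4.34 and 3.67 CPM in 2D and 10.2, 12.4 and 10.6 CPM in 3D (1.28). Metallothioneins are close copies of each other, and *MT1X* (1.74) shares 18.1% of its exon length with another gene, so these values are uncertain.

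Most interferon-stimulated genes rose, many from low levels. Of 56 tested, 37 were higher and 4 lower (median 1.16), while the summed level of the list was 1650 to 1859 CPM in 2D and 1800 to 2084 CPM in 3D, so that in sum the groups overlapped. *IFITM1*, a membrane protein that blocks viral entry, went from 0.137, 0.0344 and 0.164 to 2.11, 1.21 and 1.34 CPM (log2 fold change 3.85, SE 0.77, adjusted p = 4.2e-04), but 32.5% of its exon length is shared with another gene. *RSAD2*, the antiviral enzyme viperin, went from 0.0343, 0.0344 and 0.329 to 1.39, 1.35 and 0.834 CPM (3.42). *ISG15*, a ubiquitin-like modifier, stood at 25.9, 22 and 26.7 CPM in 2D and 48, 47 and 55.2 CPM in 3D (log2 fold change 1.01, or 0.57 with the offset, SE 0.17, adjusted p = 6.1e-05). *SAMD9*, an antiviral protein, fell from 52.5, 68.9 and 47.1 to 26.8, 21.8 and 30.1 CPM (-1.1, or -0.66 with the offset), and *EIF2AK2*, the kinase PKR, from 72.7, 74.8 and 81.6 to 47.9, 43.2 and 49.8 CPM (-0.70), which lost its call with the offset (-0.22). With the offset 1 gene of the list was lower.

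The interferon-stimulated response element, searched as GAAA, any 2 bases and GAAA on either strand, was present in 30 of the 45 promoters of this list (66.7%) and in 3.65% of all 27305 promoters. Within the list it was present in 17 of the 28 promoters of genes that rose and in 13 of the 17 of genes that did not. Of the promoters of tested protein-coding genes 2.78% held it. Among all protein-coding genes higher at least 2-fold, 4.12% of 874 promoters held it, and among those lower at least 2-fold 4.47% of 291. The 80 bases around it are shown for 4 interferon-stimulated genes that rose, with the matches in capitals: *IFITM1* from chr11:313960-314039 on the plus strand, *IFI6* from chr1:27672241-27672320 on the minus strand, *IFI27* from chr14:94110606-94110685 on the plus strand and *ISG15* from chr1:1013355-1013434 on the plus strand.
IFITM1: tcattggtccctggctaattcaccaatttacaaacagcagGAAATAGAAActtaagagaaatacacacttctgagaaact
IFI6: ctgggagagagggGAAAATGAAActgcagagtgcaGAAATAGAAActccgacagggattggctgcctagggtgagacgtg
IFI27: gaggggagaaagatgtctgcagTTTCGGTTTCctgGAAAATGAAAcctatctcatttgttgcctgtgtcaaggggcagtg
ISG15: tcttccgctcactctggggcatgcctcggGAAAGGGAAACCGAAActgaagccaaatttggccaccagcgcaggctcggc
The windows of *IFI6*, *IFI27* and *ISG15* each hold a pair of matches, which in *ISG15* overlap each other and in *IFI27* lie on opposite strands.

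Of 21 genes of antigen presentation, 12 were higher and 2 lower (median 0.492, or 0.212 with the offset). *PSMB8*, a subunit of the immunoproteasome, stood at 6.79, 4.78 and 8.77 CPM in 2D and 18.6, 17.6 and 22.3 CPM in 3D (log2 fold change 1.55, SE 0.21, adjusted p = 5.7e-06), *TAP1*, the peptide transporter, at 2.33, 2.0 and 3.01 CPM in 2D and 5.58, 4.7 and 5.33 CPM in 3D (1.12) and *B2M*, the shared light chain of class I molecules, at 274, 278 and 295 CPM in 2D and 411, 422 and 420.2 CPM in 3D (0.57). *TAPBPL*, a peptide editor, went from 0.892, 0.929 and 0.931 to 4.68, 3.6 and 3.34 CPM (2.08). Of 38 tested inflammatory genes 11 were higher and 5 lower (median 0.10), beside 21.1% and 19.6% of all genes. The chemokines *CCL5* (0.343, 0.31 and 0.164 CPM in 2D and 2.62, 1.07 and 1.05 CPM in 3D, 2.48) and *CCL28* (1.36) rose, and *IL18*, an interleukin stored by epithelial cells (7.82, 9.29 and 8.11 CPM in 2D and 4.04, 3.49 and 3.27 CPM in 3D, log2 fold change -1.22, SE 0.15, adjusted p = 1.2e-06), and *CD55*, a brake on complement (-0.67), fell.

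Early response genes downstream of MAPK were higher in 18 of 35 and lower in 6 (median 0.583, or 0.51 with 1 member at the limit). *FOS* stood at 17.4, 18 and 15.5 CPM in 2D and 191, 166 and 58.8 CPM in 3D (log2 fold change 3.03, SE 0.56, adjusted p = 3.5e-04), with HT29-3D-4 lowest in 3D but above all 2D libraries. *EGR1* stood at 21.8, 24.6 and 21.8 CPM in 2D and 103, 232 and 23 CPM in 3D (log2 fold change 2.39, SE 0.65, adjusted p = 0.00755), with HT29-3D-4 near the 2D level, and its call was lost without HT29-3D-3 (1.52). The growth factor-induced genes *PHLDA1* (207, 238 and 234 CPM in 2D and 95.1, 82.5 and 96.9 CPM in 3D, -1.3) and *EPHA2* (-0.64), an ephrin receptor, fell. In BMP and TGF-beta signaling 6 of 27 genes were higher and 8 lower (3 lower without HT29-2D-3 and 5 with the offset), beside the same shares of all genes, and *ID2*, a BMP target that restrains helix-loop-helix factors, went from 6.86, 5.95 and 8.27 to 20.8, 19.2 and 17.9 CPM (1.47).

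Lysosome and autophagy genes were higher in 15 of 32 and lower in 2, or in 13 and 7 with the offset. *CTSS*, a cathepsin, stood at 3.81, 4.34 and 4.16 CPM in 2D and 18, 14.7 and 18.2 CPM in 3D (2.05) and *MAP1LC3A*, an autophagosome protein, at 1.48, 0.826 and 3.01 CPM in 2D and 5.01, 6.19 and 6.02 CPM in 3D (1.77). Among nutrient-sensing and clock genes 2 of 19 were higher and 2 lower, smaller shares than the 21.1% and 19.6% of all genes. *TXNIP*, which is induced by glucose and restrains its uptake, stood at 27.2, 34.4 and 24.5 CPM in 2D and 182, 87.3 and 97.6 CPM in 3D (log2 fold change 2.09, SE 0.21, adjusted p = 2.6e-07). *CLOCK* (-1.24, or -0.73 with the offset) and *CRY1* (-0.71, or -0.45 with the offset) fell.

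**Figure D5:**
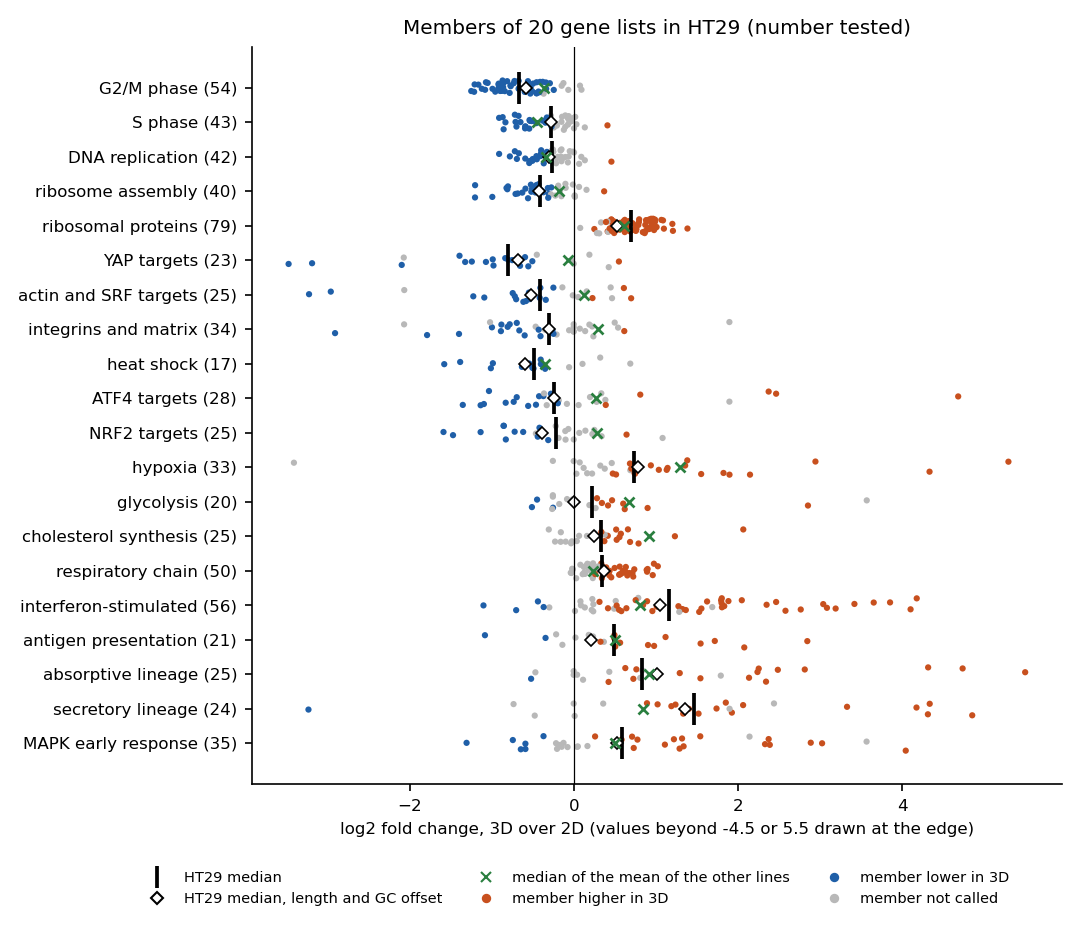
Log2 fold change of 3D over 2D for the tested members of 20 gene lists (each point is 1 gene; orange, higher; blue, lower; grey, not called; numbers tested in brackets). Black bars are the HT29 medians, from -0.797 for YAP targets to 1.46 for the secretory lineage, diamonds the medians with the length and GC offset and crosses the medians in the mean of the other lines.

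The response of HT29 was also set against the mean response of LS513, HCT116 and LS174T. For genes with a mean of at least 5 CPM the SD of the log2 fold changes was 0.722 in HT29, 0.591 in HCT116, 0.557 in LS513 and 0.509 in LS174T, all from 3 libraries per condition. A test of the difference itself called 755 genes with a response above the other lines (3.89% of those tested) and 1034 with a response below (5.33%), 9.23% in all. Leaving out 1 HT29 library gave 534 to 854 above and 588 to 704 below, and the offset gave 1104 above and 1571 below. Of the 4094 genes higher in HT29 685 were also above the other lines and 41 below, and of the 3793 lower genes 747 were below and 0 above. For 3368 of the higher and 3046 of the lower genes the difference did not pass the test, which does not show that the lines responded alike. Genes at 0 in every HCT116 library of 2D, such as *AGR3*, *TFF1* and *CEACAM7*, had no usable estimate of this difference. In single lines *AGR3* changed by 1.6 in LS174T (adjusted p = 4.4e-05), and in LS513 *TFF1* changed by 1.05 (adjusted p = 0.00514) and *CEACAM7* by 5.16 (adjusted p = 1.4e-05).

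The largest differences above the other lines among genes with no overlap in HT29 were those of *H19*, *NEURL1*, *NXPH4*, *NOX1* and *ATOH1*. *H19* changed by 5.74 in HT29 and by -0.40 in HCT116, 0.82 in LS174T and -0.91 in LS513. Its difference was 5.90 (SE 0.55, adjusted p = 2.8e-07). *ATOH1* changed by 4.18 in HT29 and by -0.09 in HCT116, 1.63 in LS174T and -0.47 in LS513 (difference 3.82, SE 0.36, adjusted p = 2.3e-07). *NOX1*, the NADPH oxidase of colonic epithelium (ENSG00000007952, GRCh38 chrX:100843324-100874345, minus strand), stood at 1.92, 0.826 and 2.36 CPM in 2D and 17, 17 and 21.9 CPM in 3D (log2 fold change 3.5, SE 0.22, adjusted p = 1.7e-10), and its difference from the other lines was 3.93 (SE 0.71, adjusted p = 0.00064). *NEURL1* changed by 0.48 in HCT116, 2.28 in LS174T (adjusted p = 1.0e-06) and 0.14 in LS513, with a difference of 4.06 (SE 0.43). *NXPH4* changed by -0.13 in HCT116, 2.56 in LS174T (adjusted p = 4.8e-07) and -0.13 in LS513, with a difference of 4.02 (SE 0.51). Below the other lines stood *PHLDB2*, with 0.08 in HCT116, -2.31 in LS174T and -1.7 in LS513 and a difference of -4.65 (SE 0.36, adjusted p = 1.5e-08), and *TNC*, with -1.03 in HCT116, -1.08 in LS174T and -0.10 in LS513 and a difference of -4.60 (SE 0.43, adjusted p = 2.0e-07). *FLNA* changed by -0.07 in HCT116, -0.86 in LS174T and 0.05 in LS513, a difference of -2.93 (adjusted p = 1.2e-09).

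By list, the difference lay below the other lines for 14 of 25 actin genes, 16 of 34 integrin and matrix genes and 7 of 23 YAP targets, beside 5.33% of all genes tested. It lay below for 13 of 33 hypoxia genes and 10 of 20 glycolytic genes as well, whose medians were 1.29 and 0.677 in the mean of the other lines and 0.739 and 0.229 in HT29. *SLC2A1* (1.33 in HCT116, 1.19 in LS174T and 1.4 in LS513; difference -1.27, adjusted p = 1.3e-06) and *CA9* (3.62 in HCT116, 3.51 in LS174T and 4.0 in LS513; difference -1.81, adjusted p = 0.00415) were among them. Cholesterol genes were below in 16 of 25, with a median of 0.915 in the other lines, ATF4 targets in 13 of 28 (median 0.266) and NRF2 targets in 13 of 25 (median 0.287). *SLC7A5* differed by -1.07 (adjusted p = 2.3e-06). For absorptive genes 2 of 25 were above and 2 below, with medians of 0.836 in HT29 and 0.922 in the other lines. *KRT20* rose more in the other lines (1.95 in HCT116, 3.93 in LS174T and 1.54 in LS513; difference -1.71, adjusted p = 2.2e-06). For secretory genes 2 of 24 were above and 0 below, with medians of 1.46 in HT29 and 0.848 in the other lines. For ribosomal proteins 0 of 79 differed in either direction, with medians of 0.695 in HT29 and 0.609 in the other lines, and for S phase genes 4 of 43 were above and 0 below, beside 3.89% and 5.33% of all genes. For G2/M genes 0 of 54 were above and 12 below, with medians of -0.671 in HT29 and -0.365 in the other lines.

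By gene class, antisense genes were higher in 262 of 1338 (19.6%) and lower in 77 (5.75%), beside 21.1% and 19.6% of all genes. Their share of higher genes was thus near that of all genes. The median was 0.429, and with the offset the shares were 14.1% and 7.7% and the median 0.261. The libraries were stranded and the setting used in counting is not stated, so reads of a gene and of its antisense partner cannot be told apart. Sense-intronic genes were lower in 35 of 149 (23.5%) and higher in 8 (5.37%), beside 19.6% and 21.1% of all genes, so the share of lower genes was near that of all genes. With the offset these shares were 27.5% and 3.36%, and without HT29-2D-3, 25 were lower and 8 higher. By level, 36.3% of the detected protein-coding genes in the lowest of 4 equal groups of expression were higher and 10.7% lower, and in the highest group 19.3% were higher and 36.8% lower, shares that with the offset were 35.8% and 10.4%, and 18.7% and 38.9%. A gene counted as detected if all 3 libraries of either condition were above 3 counts. That limit was 0.160 CPM in HT29-2D-3 and 0.0875 to 0.105 CPM in 3D, so weak genes could enter more easily through 3D. The part of this in the lowest group was not tested.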

How the data were processed

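RNA was sequenced from 4 colorectal cell lines grown in 2D and in 3D, as 75-base single reads of stranded poly(A) libraries. Per the labels and methods, the authors trimmed reads with Trim Galore 0.4.1, aligned them with STAR, removed reads that mapped to several places and counted exons by gene with HTSeq 0.5.3. The submitters' processing notes name hg19, while the methods name Ensembl 91, which is a GRCh38 annotation. The values deposited by the authors are raw counts per technical replicate, 8 per library, which were summed here. Technical replicate d of HT29-3D-4 was not analysed here, so that library was summed over 7 and HT29 over 47. HT29 totals of 18723942 to 34277421 counts set the limit of detection given above.

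Genes passing filterByExpr over all 24 libraries were scaled by TMM and fitted with the quasi-likelihood test of edgeR 4.0.16 (R 4.3.3), 1 coefficient per line and growth condition, with robust estimation. The contrast was HT29 in 3D minus 2D, and the comparison of lines was that contrast minus its mean in the other 3. P-values were adjusted by Benjamini-Hochberg over all 19387 genes and called under 0.05. The SE was derived from the fold change and its F statistic. The fit was tested on simulated data, where it made more false calls with a simulated length trend than without one, and the offset removed most of that excess. The simulated trend was in transcript length alone and in the HT29 3D libraries alone, and the offset fits the same variable. The simulation therefore does not show how well the offset handles the length and GC trends of these libraries.

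Named genes were those with the largest changes (10 per direction, at least 5 CPM in the higher group, no overlap), the largest changes in CPM (5 per direction), up to 3 called members per direction and the most abundant member of each list, the largest differences between lines (5 per direction) and a set of defining members. Some genes that this rule names are not reported here. The members and gene lists were chosen with earlier results of these data known. Symbols were found for 42284 of 58243 identifiers. Gene positions are from GENCODE 29 (GRCh38) and promoters from RefSeq. Alternatives were other scalings and filters, DESeq2 1.42.0, the 6 HT29 libraries alone, a replicate block, subsets of technical replicates, other cutoffs and each library left out. The length and GC offset (a spline on the longest transcript per gene), alone and without HT29-2D-3, was chosen after seeing the data.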

Additional observations from a re-analysis of the deposited data

Results flagged for a closer look

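The response to 3D differed between HT29 and the mean of the other lines for 755 genes above and 1034 genes below, by a test of the difference itself (edgeR, adjusted p under 0.05). Above the other lines, the largest log2 differences were 5.90 for *H19*, 4.06 for *NEURL1*, 4.02 for *NXPH4*, 3.93 for *NOX1* and 3.82 for *ATOH1*, and each was called in all 6 fits that left out 1 HT29 library. Each of these genes also rose in LS174T, by 0.82, 2.28, 2.56, 0.74 and 1.63 in that order. Below the other lines stood *PHLDB2* (-4.65) and *TNC* (-4.60), called in all 6 of those fits as well. *RMRP* (-9.39) and *SNORA73B* (-6.01), both RNAs without a poly(A) tail, also passed the test, but without HT29-2D-3 their differences were -3.07 (adjusted p = 0.076) and -1.46 (adjusted p = 0.22).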

How the results depend on the processing

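With a 2-fold cutoff 1664 genes were higher and 739 lower, and with the fold cutoffs of the study (log2 over 1.5 and under -0.5) applied to the edgeR fit 949 and 2422. The study used those cutoffs with a p under 0.05 and DESeq2, so its counts are not matched here. Leaving out 1 HT29 library gave 3621 to 4033 higher and 2751 to 3091 lower genes, and without HT29-2D-3, 6 genes were called in the opposite direction. For the difference from the other lines, DESeq2 called 1164 genes above, the length and GC offset 1104 above and 1571 below, and fits without 1 library 588 to 704 below. Of 36 list medians, those of DNA replication moved from -0.262 to -0.219 with upper quartile scaling, -0.217 with all genes and -0.210 with technical replicates e to h (-0.227 to -0.212 without 1 library). With the offset the medians were 0.533 for ribosomal proteins, 0.00151 for glycolysis, -0.389 for NRF2 targets, 0.969 for metallothioneins and 0.212 for antigen presentation. With the offset and without HT29-2D-3 they were 0.534 for ribosomal proteins, 0.906 for hypoxia, 0.0175 for glycolysis, 0.486 for fatty acid oxidation, 0.897 for metallothioneins, 0.285 for antigen presentation, 0.312 for nutrient-sensing and clock genes and 0.387 for histones. With all genes they were 0.768 for metallothioneins and 1.32 for interferon-stimulated genes. With HT29 alone they were 0.933 for interferon-stimulated, 1.43 for absorptive and -0.0481 for BMP and TGF-beta genes, the last from 0.229, and with technical replicates e to h 1.6 for absorptive genes. Without 1 library the ranges were -0.397 to -0.136 for NRF2 targets, 0.606 to 1.5 for metallothioneins, 0.965 to 1.34 for interferon-stimulated genes, 0.705 to 1.26 for absorptive genes, -0.109 to 0.181 for nutrient-sensing and clock genes and -3.29 to 0.606 for histones. The causes of these shifts were not tested.

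HT29 conditions share the replicate numbers 1 and 3, whose samples had deviation correlations of 0.104 and -0.171, so the numbers were not taken as pairs. A replicate block gave 2819 higher and 2596 lower genes, 248 above and 411 below the other lines, and medians of 0.209 for fatty acid oxidation, 0.521 for metallothioneins and 0.862 for interferon-stimulated genes.

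Limits are 3 libraries per condition of 1 cell line, no statement that they are separate cultures, a length and GC trend that moves with the condition and 1 shallow 2D library rich in RNA without a poly(A) tail.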
